A study of Mus musculus with 30 samples.

Results

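Embryoid bodies of the Pali wild type mouse embryonic stem cell line were compared at day 4 of differentiation with the undifferentiated cells of the same line at day 0. The comparison rests on 2 libraries of each state, 4 of the 30 libraries of the series, chosen by their line and time labels alone. It covers the 20563 genes of the deposited table, of which 15712 passed the filter on low values, a normalised count of at least 10 in at least 2 libraries. The series follows 5 mouse lines at day 0, day 4 and day 8 with biological duplicates: Pali wild type, Pali1-/-, the double knockout Pali1-/-, Pali2-/-, C129 wild type and the gene trap Aebp2gt/gt. Polycomb repressive complex 2 (PRC2) methylates histone H3 at silent developmental genes, and the proteins PALI1 (from Lcor), PALI2 (from Lcorl) and AEBP2 bind it as accessory subunits. At day 0 the cells grew on gelatine in serum medium with the cytokine LIF. For embryoid bodies, which are floating aggregates, they were seeded in non-adherent dishes in the same medium with LIF left out. The Pali wild type groups carry no engineered allele in the labels, and loss of LIF, loss of adhesion and time in culture changed together between day 0 and day 4, so their effects cannot be told apart. Whether the duplicates came from different clones is not stated, and the spread behind each p-value is that between duplicate cultures, which may be technical.

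LIF binds a receptor made of LIFR and gp130 (Il6st), whose JAK kinases phosphorylate STAT3. In mouse stem cells STAT3 keeps the naive pluripotency factors switched on, among them Klf4 and Tfcp2l1. Without LIF, aggregated cells lose that network and pass through a formative state, like the epiblast around implantation and marked by Otx2, Fgf5 and Dnmt3b, before germ layers form.

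The 4 libraries held between 16406653 and 17435219 normalised counts, from an estimated 15074679 to 18102795 reads, and between 12182 and 12831 genes at 10 or more. Duplicates correlated across genes at 0.959 at day 0 and 0.956 at day 4 (Pearson, on log2 values). That r runs across genes, which are not independent of each other. Some exact zeros in the table can be failed estimates, so values are given per library where a library is listed at 0. A log2 difference that involves such a library depends on the added 4 and measures no fold. The day 4 duplicates differed by transcript length. In the fifth of genes with the longest transcripts, 5139 to 123179 bases, the median of replicate 2 minus replicate 1 was -0.13 on the log2 scale, against 0.07 in the fifth with the shortest. The day 0 duplicates had a median difference of 0 in each of these bins. The change from day 0 to day 4 also varied with length: its median was -0.04 in the shortest and 0.19 in the longest bin, and in the longest 0.28 for day 4 replicate 1 and 0.07 for replicate 2.

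Of 15712 genes tested, 2302 (14.7%) rose and 1994 (12.7%) fell from day 0 to day 4, 4296 (27.3%) in all, at an adjusted p under 0.05. Large changes were more often rises: 1410 genes rose and 674 fell by at least 2-fold, 256 rose and 75 fell by at least 8-fold, and 106 rose and 23 fell by at least 16-fold. The median difference of all genes tested was 0.02. All differences given are day 4 minus day 0 of log2(normalised count + 4), with the standard error (SE) after the ± sign, and they understate the change of low genes. Counts of called members in the gene lists below are to be read against 14.7% and 12.7%. Lists and members were chosen with earlier results of these data known, so an excess over these shares is no test of a list. Many genes named below were chosen by the size or adjusted p of this change, which favours close duplicates and a gap between the days. RNA was taken from whole cultures, so more or fewer cells of a type and more or less RNA per cell cannot be told apart.

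**Figure D1:**
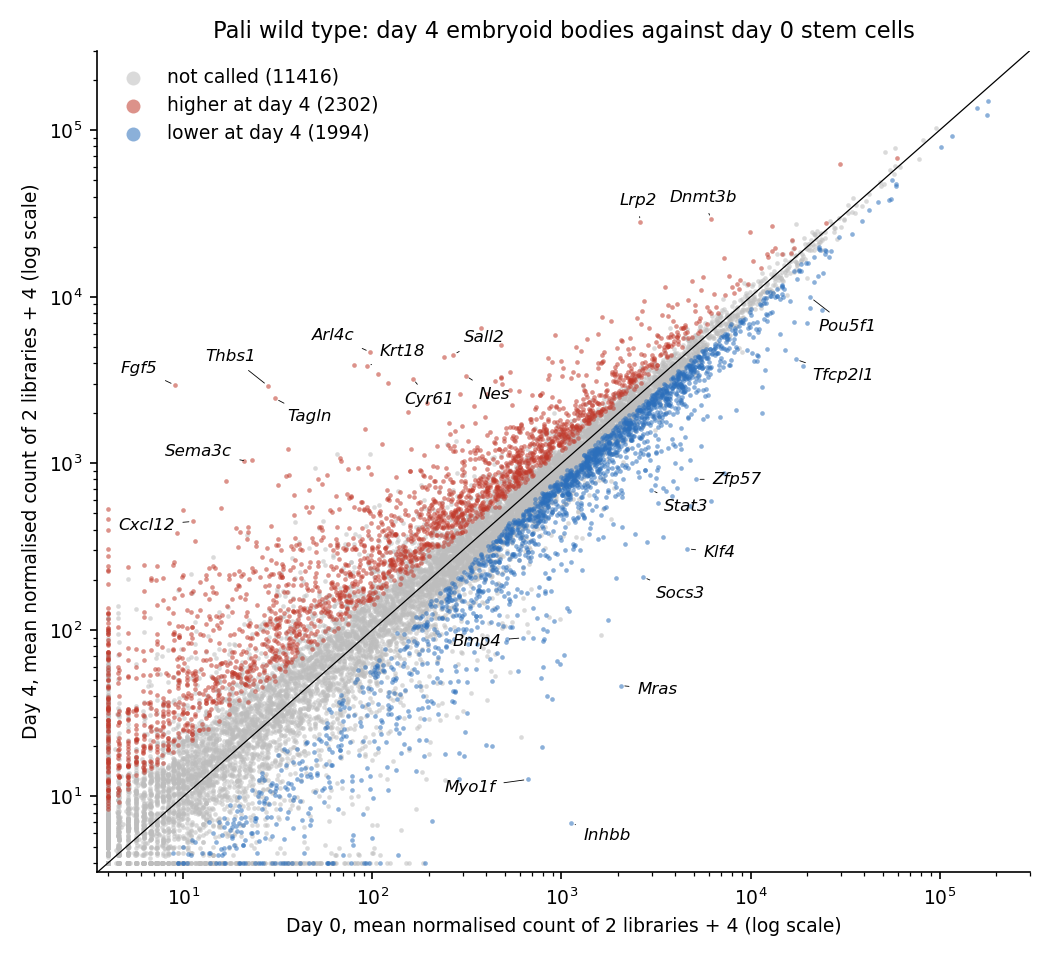
Mean normalised count of the 2 day 4 libraries (vertical) against that of the 2 day 0 libraries (horizontal) in Pali wild type, each plus 4, on log axes, 1 point per tested gene. Red points are the 2302 genes called higher, blue the 1994 called lower and grey the 11416 not called, the line marks equal values, and named genes are those of the text such as Thbs1, far above the line, and Inhbb, far below it.

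The receptor and signalling chain of LIF changed in both directions. Stat3, the transcription factor at its end (chromosome 11, 100885098 to 100939540, minus strand, GRCm38), stood at 3098 and 2840 normalised counts at day 0 and at 738 and 641 at day 4. Both day 4 libraries lay far below both day 0 libraries, and the difference was -2.10 ± 0.126 (adjusted p 3.78e-09). Lifr, the ligand-binding receptor chain, went from 5113 and 5883 to 2623 and 1866 (-1.31 ± 0.175, adjusted p 2.54e-05), and Il6st, the shared signalling chain, from 4233 and 4260 to 2826 and 1984 (-0.84 ± 0.134, adjusted p 0.000141). Neither receptor gene overlapped between the days. Jak2, a kinase of the pathway, moved the other way, from 87.8 and 125 to 509 and 516 (2.25 ± 0.414, adjusted p 0.000554). Ptpn11, the phosphatase SHP2 that links cytokine receptors to ERK, rose from 2720 and 2715 to 4629 and 4305 (0.72 ± 0.065, adjusted p 4e-07). Of the 10 tested components 4 fell and 3 rose, with a median of -0.39, and the smallest of the rises, Jak1 at 0.43 (adjusted p 0.0365), was lost without replicate 1 of either day.

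Targets of STAT3 in stem cells were lower at day 4: 9 of 13 fell and the other 4 did not pass the test, with a median of -2.08. Socs3, the feedback inhibitor of the receptor and JAKs (chromosome 11, 117966079 to 117970047, minus strand), was at 2694 and 2700 at day 0 and at 179 and 228 at day 4 (-3.71 ± 0.918, adjusted p 0.00559). Klf4 went from 3918 and 5329 to 259 and 347 (-3.91 ± 0.356, adjusted p 4.38e-07), Klf5, a factor of the same family, from 2413 and 2470 to 412 and 335 (-2.70 ± 0.179, adjusted p 9.47e-09) and Myc, the growth regulator, from 739 and 910 to 103 and 135 (-2.75 ± 0.255, adjusted p 4.56e-07). In each of these 4 genes the days were separated by a wide gap. Bcl3 (-3.77), Gbx2 (-3.80), Tfcp2l1 (-2.08), Pim3 (-0.89) and Pim1 (-0.79) also fell, while Junb (0.02), Socs2 (-0.32), Cish (0.66) and Pramel7 (-0.82) did not pass the test. Cish and Pramel7 lay under 12 normalised counts in all 4 libraries. The 9 falls were called again without each library in turn.

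The Socs3 promoter is shown because it is the one among these falling targets that holds a STAT motif in the 250 bases before the RefSeq start. The stretch is chr11:117969472-117969560 on the minus strand (RefSeq, GRCm38.p6), printed 5′ to 3′, with the motif in capitals, 154 bases before the start.
Socs3: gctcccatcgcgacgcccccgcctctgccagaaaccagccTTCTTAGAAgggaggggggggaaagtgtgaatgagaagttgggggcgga
The motif searched was TTCNNNGAA, which reads the same on both strands. Of the 9 targets that fell, 7 had a promoter entry and 1 of them held the motif, against 6.96% of 12316 tested genes with an entry and 7.02% of all 32851 promoters. A match is only a match of letters. The stretch lies within the GENCODE gene span of Socs3 and overlaps no annotated exon.

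Of 20 tested naive pluripotency genes 18 fell, with a median of -2.04, beside 12.7% of all genes. Klf4, Klf5, Tfcp2l1 and Gbx2 are counted in both lists. Nr0b1, a repressor that partners the core factors, went from 2602 and 3039 to 300.0 and 367 (-3.07 ± 0.328, adjusted p 2.48e-06). Fgf4, the growth factor by which stem cells prime each other, went from 5165 and 5744 to 1136 and 1383 (-2.12 ± 0.241, adjusted p 4.98e-06). Tfcp2l1, a transcription factor that STAT3 switches on, went from 17568 and 17145 to 5148 and 3264 (-2.08 ± 0.254, adjusted p 1.06e-05). Tdh, the threonine dehydrogenase that mouse stem cells depend on, went from 20022 and 19717 to 6713 and 7259 (-1.51 ± 0.151, adjusted p 1.12e-06). The 2 members without a call were Dppa3, at 970 and 358 before and 1246 and 852 after, and Pecam1, whose day 0 duplicates differed from each other, at 723 and 174. The days did not overlap in Nr0b1, Fgf4, Tfcp2l1 or Tdh. The count of falls was 16 or 17 without any 1 library and 14 when only the 4 compared libraries were fitted.

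Of 13 core pluripotency factors 5 fell, with a median of -0.58, and the other 8 did not pass the test. Pou5f1, the POU factor OCT4, stood at 20101 and 21356 at day 0 and at 10339 and 9482 at day 4 (-1.06 ± 0.253, adjusted p 0.00414). Sox2 went from 11283 and 10784 to 6282 and 6526 (-0.78 ± 0.103, adjusted p 2.01e-05), and Nanog from 10228 and 10418 to 6245 and 7624 (-0.58 ± 0.173, adjusted p 0.0182). The lowest day 4 value of these 3 genes was 6245, that of Nanog, and no day 4 library reached the range of day 0. The call of Nanog was lost when day 4 replicate 1 or either day 0 library was left out. Dppa2 (-2.07) and Dppa4 (-1.15), paired chromatin factors of early embryos, made up the rest of the falls. Sall4 (-0.14), Utf1 (0.17), Rif1 (0.04) and Zfp281 (0.15) were among those without a call.

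Genes of the formative and primed epiblast rose: 14 of 17 tested, with a median of 2.24, beside 14.7% of all genes. Otx2, the homeobox factor that opens the way out of the naive state (chromosome 14, 48657677 to 48673819, minus strand), went from 181 and 120.0 to 1981 and 2082 (3.75 ± 0.240, adjusted p 8.51e-09). Dnmt3b, a de novo DNA methyltransferase, was already at 6297 and 6053 and reached 31149 and 27461 (2.24 ± 0.368, adjusted p 0.000195). Sall2, a zinc finger factor, went from 225 and 302 to 4120 and 4844 (4.08 ± 0.238, adjusted p 3.54e-09), and Pou3f1, the POU factor OCT6, from 69.0 and 113 to 818 and 1081 (3.35 ± 0.346, adjusted p 1.66e-06). Every day 4 library of these 4 genes exceeded both day 0 libraries by several fold. Fgf5 had the largest rise of all named genes (8.35 ± 0.506), and Pim2, a survival kinase, rose by 4.12. The 3 members without a call, Lef1 (1.22), Wnt8a (1.00) and Grhl2 (0.70), had positive differences as well. The count was 11 to 13 without 1 library, 13 with the transcript length trend removed and 9 when only the 4 compared libraries were fitted.

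**Figure D2:**
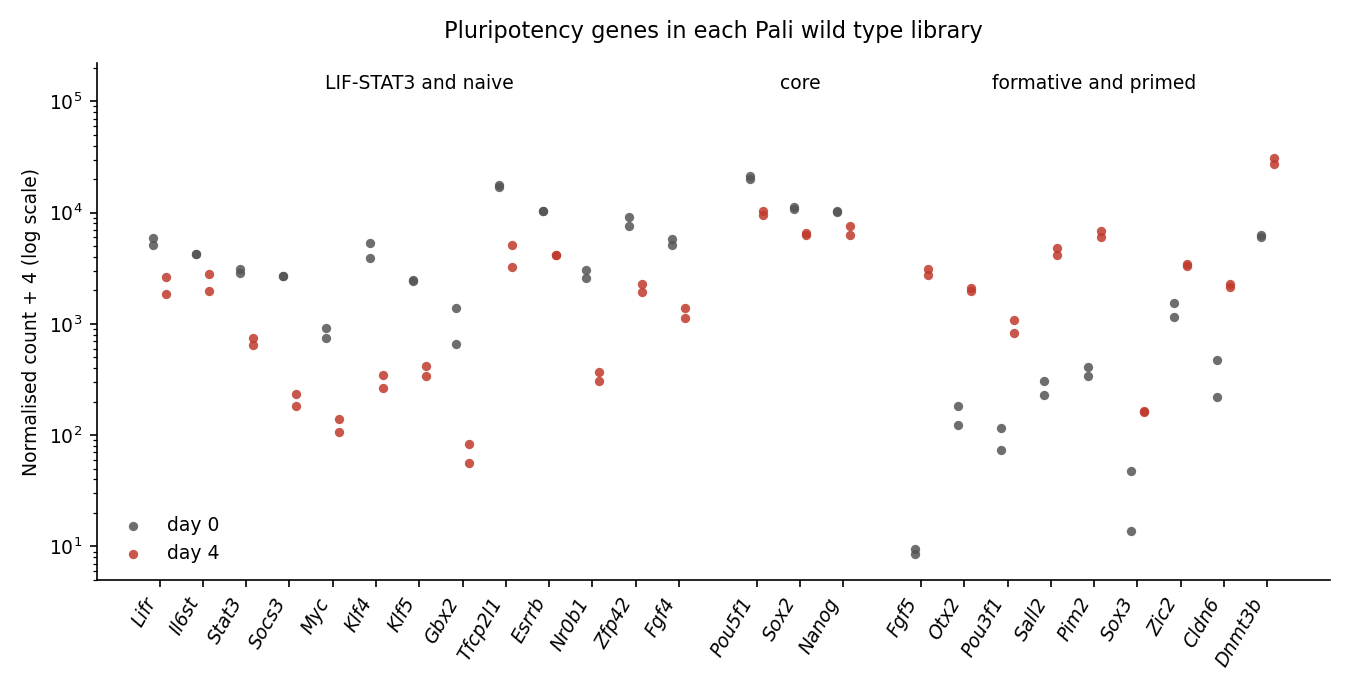
Normalised count plus 4 on a log axis for 25 pluripotency genes, 1 point per Pali wild type library, grey for day 0 and red for day 4. Points of the LIF, STAT3 and naive genes shown lie lower at day 4. Pou5f1, Sox2 and Nanog differ by -1.06, -0.78 and -0.58. Formative and primed genes lie higher, from Fgf5 near 5 at day 0 to Dnmt3b at 27461 and 31149 at day 4. The genes were picked from the lists, and members that rose, such as Jak2 and Ptpn11, or were not called, such as Junb and Dppa3, are left out.

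The largest rises after Fgf5 were in genes of varied kinds. Thbs1, the matrix glycoprotein thrombospondin 1 (chromosome 2, 118111876 to 118127133, plus strand), went from 34.0 and 13.9 to 2782 and 3062 (6.81 ± 0.660, adjusted p 9.12e-07). Tagln, the actin-binding protein SM22, went from 26.3 and 26.7 to 2098 and 2804 (6.32 ± 0.646, adjusted p 1.61e-06). Both genes were nearly silent at day 0 and abundant at day 4. Sema3c, a secreted guidance cue (5.66), Plxdc2, a transmembrane receptor (5.70), Arl4c, a small GTPase (5.58), and Cxcl12, the ligand of CXCR4 (5.39), rose as steeply. Kif1a, a motor protein, rose by 6.08, with day 0 duplicates of 20.8 and 130.3. Slc40a1, the iron exporter ferroportin, was listed at 38.4 and 0 at day 0 and at 836 (replicate 1) and 1247 (replicate 2) at day 4. Fndc3c1, a fibronectin type III domain gene, was listed at 0 and 25.6 at day 0 and at 784 and 765 at day 4, and Gprc5c, an orphan receptor gene, at 10.4 and 0 and at 300.3 and 458.

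Among the falls Inhbb, the βB subunit of activin and inhibin (chromosome 1, 119415465 to 119422248, minus strand), dropped from 1362 and 880.3 to 3.62 and 2.20 (-7.32 ± 0.399, adjusted p 2e-09), the largest fall of the named genes. Myo1f, an unconventional myosin, went from 517 and 804 to 6.34 and 10.98 (-5.70 ± 0.382, adjusted p 1.05e-08). Mras, a RAS-family GTPase (-5.47), Gna14, a G protein alpha subunit (-5.31), and Krt17, a keratin (-4.51), fell to under 50 in both day 4 libraries. Of the 12 largest falls 6 were listed at 0 in a day 4 library, and the calls of 4 of these, Chrna9, Mylpf, Lrrc2 and Tgm1, were lost when only the 4 compared libraries were fitted.

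In the lists of definitive endoderm, streak and mesoderm, and neural genes the shares of called members were near those of all genes or below them. No definitive endoderm gene of 10 tested was called by limma, and 0 passed an unadjusted p of 0.05: Sox17 was at 0 and 23.9, Foxa2 at 2.74 and 39.8, and Cer1 at 8.16 and 5.49, while Trh, a hormone precursor gene of the same list, was already at 10790 and 16901 at day 0 and stood at 14466 and 21416. Sox17 and Foxa2 were the higher in replicate 2, and with replicate 1 of day 4 left out 1 member was called. The streak gene T, brachyury, was listed at 0 in both day 4 libraries. Eomes (1.64), Twist1 (1.49) and Wnt3 (1.84) rose in the list of 23 primitive streak and mesoderm regulators, at 187 and 180.1, 77.9 and 110, and 9.97 and 18.7, and Bmp4 (-2.79), Cdx1 (-3.69) and Meox1 (-1.44) fell. None of those 3 rises was called without day 4 replicate 2, and 1 was called without day 0 replicate 1. In the neural list 5 of 30 rose, a share near the 14.7% of all genes, and 1 fell, 3 rising without day 0 replicate 1 and 2 without day 4 replicate 2. Nes, the progenitor intermediate filament nestin, went from 280 and 334 to 3184 and 3530 (3.44 ± 0.227, adjusted p 1.05e-08), whereas Sox1 (866 and 1314 at day 4) and Pax6 (394 and 632) did not pass the test and Tubb3, a neuronal tubulin, fell by 1.52. Neurog1 and Neurog2 were under 3 in all 4 libraries.

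Of 29 extraembryonic endoderm genes 6 rose and 4 fell, near the 14.7% and 12.7% of all genes, and 12 rose without day 4 replicate 1. Day 4 replicate 2 lay above replicate 1 in 24 of these 29 genes (82.8%), against 48.2% of all genes. The defining products stood apart between the duplicates: Afp was at 7.25 and 92.2 and Gata6 at 0 and 26.3 at day 4, both at 0 at day 0. Lrp2, the endocytic receptor megalin that is also made by neural epithelium (chromosome 2, 69424340 to 69586065, minus strand), went from 2625 and 2583 to 30302 and 25990 (3.43 ± 0.196, adjusted p 3.31e-09). The collagen IV genes Col4a1, from 317 and 744 to 1925 and 3587, and Col4a2, from 65.8 and 241 to 670 and 1123, rose, and the laminin genes Lama1, from 2254 and 2085 to 178 and 472, and Lamc1, from 12574 and 11791 to 8101 and 6144, fell. Basement membrane genes thus moved in opposite directions in both duplicates.

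Simple epithelial keratins rose steeply, and other members of the trophoblast list differed among themselves. Krt8 went from 113 and 120 to 2541 and 3513 (4.64 ± 0.393, adjusted p 1.96e-07) and its partner Krt18 from 81.1 and 98.3 to 3411 and 4225 (5.35 ± 0.482, adjusted p 4.09e-07). Krt19 (3.22) and Krt7 (2.21) rose as well. With the transcription factors Ets2, from 484 and 470.1 to 975 and 954, and Esx1, from 7.67 and 7.48 to 36.2 and 56.0, and the cadherin Cdh3 they made 7 of 18 tested members higher. Of the other members Cdx2 was at 0 and 1.10 at day 4, Elf5 at 1.81 and 2.20, Hand1 at 0 and 2.20, and Prl3d1, Prl2c2, Tpbpa and Plac1 were listed at 0 in all 4 libraries. Gata3 was at 21.7 and 0 and Tfap2a at 14.8 and 19.11 at day 4, from 0 at day 0, and neither passed the test. The claudins Cldn3 (2.72), Cldn6 (2.78) and Cldn7 (2.71), which seal tight junctions, rose together, and of 20 cadherin, claudin and epithelial transition genes 10 rose and 1 fell. That count was 5 without day 0 replicate 2 and 6 without day 4 replicate 1. The gene that fell was Vim, the mesenchymal filament vimentin, from 2341 and 4521 to 543 and 865 (-2.24 ± 0.365, adjusted p 0.000184), its call lost when only the 4 compared libraries were fitted. Cdh1, E-cadherin, rose, at 13138 and 11218 before and 20261 and 16077 after. Cdh2, N-cadherin, rose with it, at 114 and 235 before and 442 and 496 after. Both calls were lost without day 4 replicate 1 and when only the 4 compared libraries were fitted. That of Cdh1 was also lost without day 0 replicate 2, and that of Cdh2 without day 0 replicate 1 or day 4 replicate 2.

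YAP and TEAD proteins carry mechanical and density signals of the Hippo pathway to genes such as Cyr61 and Ctgf. Of 12 genes of this group 8 rose and the other 4 did not pass the test, with a median of 1.31. The count was 7 or 8 without any 1 library and 5 when only the 4 compared libraries were fitted. Cyr61, a secreted matricellular protein (chromosome 3, 145646976 to 145649981, minus strand), went from 125 and 194 to 2733 and 3702 (4.32 ± 0.436, adjusted p 1.42e-06). Ctgf, its relative, went from 367 and 588 to 3054 and 3553 (2.82 ± 0.305, adjusted p 2.93e-06). Lats2, the kinase that restrains YAP and is itself a target, went from 99.4 and 130.4 to 688 and 685 (2.55 ± 0.270, adjusted p 2.04e-06). All 3 genes had day 4 values several fold above both day 0 values. Of the factors themselves Tead3 (1.92), Tead1 (1.05), Tead2 (0.99) and Yap1 (0.45) rose, and Tead4 (-0.34) and Wwtr1 (0.30) did not pass the test. Axl, a receptor kinase, was listed at 0 and 14.7 at day 0 and at 35.7 and 55.8 at day 4 (adjusted p 0.0414). Ankrd1 (1.10) and Amotl2 (1.53) did not pass it, the latter with day 0 duplicates of 2.19 and 319.

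Promoter stretches of 3 rising genes of this group are shown because they hold the TEAD motif within 250 bases before the RefSeq start. They are, all on the minus strand of GRCm38.p6 (RefSeq) and printed 5′ to 3′, chr3:145650043-145650128 for Cyr61, chr7:25788921-25788983 for Axl and chr9:8004692-8004777 for Yap1, with the motif in capitals 103, 233 and 141 bases before the start.
Cyr61: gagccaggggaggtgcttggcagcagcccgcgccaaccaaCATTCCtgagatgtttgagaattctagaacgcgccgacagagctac
Axl: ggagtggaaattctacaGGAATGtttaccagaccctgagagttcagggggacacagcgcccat
Yap1: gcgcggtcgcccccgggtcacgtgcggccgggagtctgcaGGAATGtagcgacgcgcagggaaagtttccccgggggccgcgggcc
The motif searched was GGAATG on both strands, so that CATTCC is the same match on the opposite strand. Of the 8 genes that rose 6 had a promoter entry and 4 held the motif, Tead3 being the other one, against 13% of 12316 tested genes with an entry and 12.6% of all promoters. The 3 stretches overlap no annotated GENCODE gene, and a match is a description of letters, not of binding.

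Smooth muscle actin, Acta2, rose alongside, from 9.86 and 8.55 to 200.3 and 218 (4.01 ± 0.554, adjusted p 3.54e-05), and 8 of 18 fibroblast and mesenchyme genes tested rose and 1, Vim, fell. Summed over the list the values were 2929 and 5497 at day 0 and 6737 and 7999 at day 4. Members of the list differed: Col1a2, a fibrillar collagen chain, rose from 1.10 and 3.20 to 65.2 and 76.8 (3.63 ± 0.548, adjusted p 8.42e-05) and Dcn, the matrix proteoglycan decorin, from 0 and 1.09 to 77.1 and 57.8. Col3a1 was at 0.91 and 3.29, Postn at 1.84 and 3.34, Lum at 0 and 2.20, and Pdgfrb at 33.5 and 35.1 at day 4, after 30.7 and 41.7 at day 0. The share of fibroblast-like cells in the rise of Thbs1, Tagln and Acta2 was not tested.

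**Figure D3:**
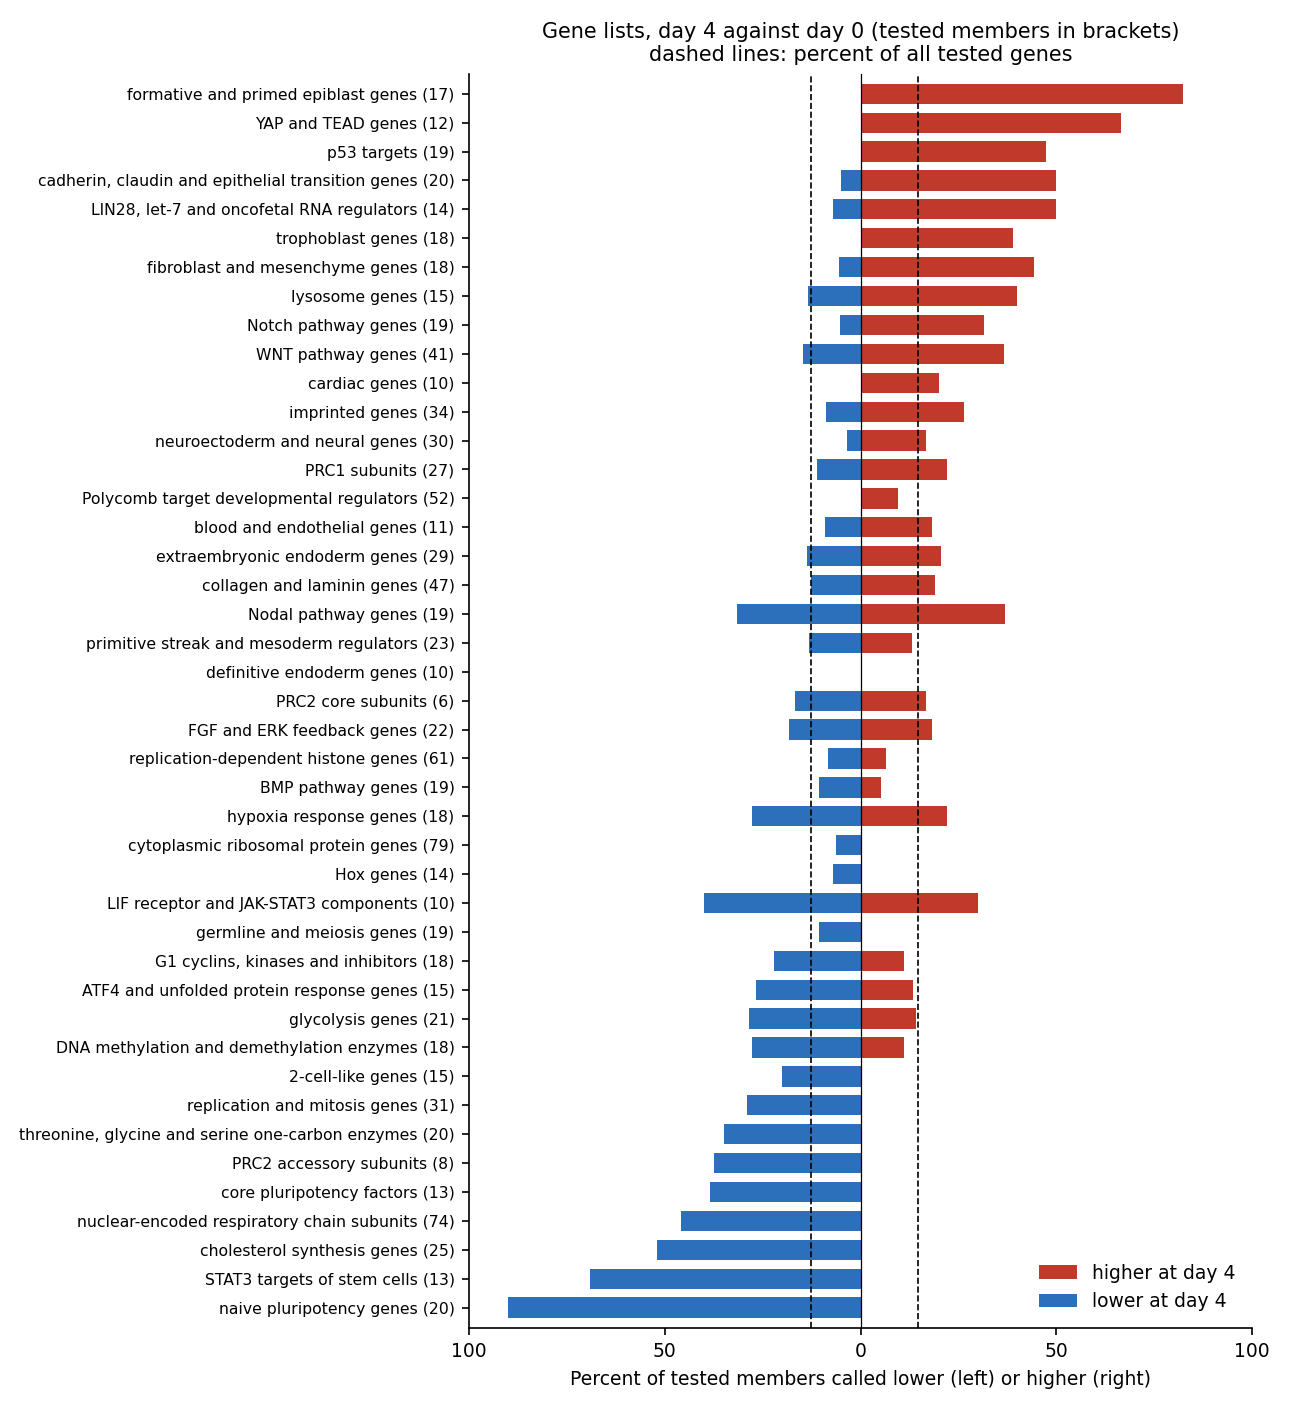
Percent of tested members called lower (blue, left) or higher (red, right) from day 0 to day 4 in each of 43 gene lists, with the number tested in brackets, and dashed lines at 12.7% and 14.7%, the shares of all tested genes. Naive pluripotency genes and STAT3 targets reach farthest left, and formative and primed genes and YAP and TEAD genes farthest right.

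In FGF signalling Spry4, a feedback inhibitor, went from 4885 and 7514 to 460 and 728 (-3.38 ± 0.284, adjusted p 1.78e-07) while Dusp4, a phosphatase of ERK and likewise a feedback gene, went from 597 and 467 to 3551 and 3539 (2.74 ± 0.157, adjusted p 2.83e-09). These feedback genes moved in opposite directions, and the list of 22 had 4 rises and 4 falls. Dusp6, another ERK phosphatase, was at 2341 and 2864 before and 3072 and 4215 after and did not pass the test.

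In Nodal signalling co-receptor and inhibitor genes fell, and some receptor and effector genes rose. Tdgf1, the co-receptor Cripto, went from 17615 and 20409 to 2949 and 4762 (-2.34 ± 0.323, adjusted p 3.72e-05). Lefty1 (-1.75), Lefty2 (-1.37) and Smad7 (-1.19), inhibitors of the pathway, and Gdf3 (-1.29), a ligand, also fell, and Nodal itself (-0.67, adjusted p 0.053) did not pass the test. Smad3, an effector, went from 336.5 and 392.1 to 1124 and 1034 (1.56 ± 0.203, adjusted p 1.92e-05), Acvr2b, a receptor, rose by 1.05 and Furin, which cleaves the ligand precursors, by 1.69, while Pcsk6, another convertase of these precursors, fell by 0.78. Of 19 genes 7 rose and 6 fell, and 4 rose without either day 4 library. The calls of Lefty1 and Lefty2 were both lost without day 4 replicate 1.

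WNT receptor genes changed in both directions. Fzd2 went from 210.4 and 296 to 1337 and 1640 (2.55 ± 0.233, adjusted p 4.09e-07), Fzd8 from 75.6 and 62.0 to 279 and 322 (2.07 ± 0.176, adjusted p 1.81e-07) and Fzd7 from 3599 and 3201 to 8067 and 7560 (1.20 ± 0.135, adjusted p 4.14e-06). Fzd5 went the opposite way, from 4409 and 4562 to 1603 and 1256 (-1.66 ± 0.119, adjusted p 2.62e-08). The feedback targets Sp5 (-2.93) and Notum (-2.69) fell, while Axin2, at 0 and 130.3 before and 14.5 and 0 after, could not be read. In the whole list of 41, 15 rose and 6 fell, with 3 falls without day 4 replicate 1, and the call of Sp5 was lost without that library. Notch receptors Notch2 (1.30) and Notch3 (1.86) rose and the ligand Jag1 (-1.06) fell, in a list with 6 rises and 1 fall among 19. For BMP signalling the values were lower for Bmp4, at 695 and 548 before and 88.7 and 82.5 after (-2.79 ± 0.480, adjusted p 0.000286), and higher for Bmp7, at 84.4 and 81.2 before and 333 and 319 after (1.93 ± 0.338, adjusted p 0.000334). The list of 19 had 1 rise and 2 falls, no larger a share than among all genes. The other fall was Id1 (-1.19 ± 0.330, adjusted p 0.0118). Its call was lost without day 0 replicate 2, without day 4 replicate 1 and when only the 4 compared libraries were fitted. Id2 (-0.51) and Id3 (-0.22) did not pass the test.

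Target genes of p53 rose in 9 of 19 cases, with a median of 0.93, and 8 or 9 were called without any 1 library. Btg2, an antiproliferative gene, went from 256 and 245 to 1456 and 2009 (2.75 ± 0.234, adjusted p 1.81e-07). Cdkn1a, the cyclin kinase inhibitor p21, went from 193 and 215 to 572 and 642 (1.55 ± 0.226, adjusted p 5.62e-05), and Trp53inp1 from 3617 and 3652 to 8284 and 9519 (1.29 ± 0.113, adjusted p 2.51e-07). Phlda3 (1.76), Pmaip1 (1.75), Plk2 (1.27), Ccng1 (1.19), Eda2r (0.93) and Mdm2 (0.46) completed the rises. Apoptosis genes of the same list differed among themselves, since Pmaip1 rose and Bax (-0.19) and Bbc3 (0.88) did not pass the test. Of the cyclins Ccne1 (-0.84) and Ccnd1 (-0.68) fell, from 5383 and 5923 to 3003 and 3296 for Ccne1.

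Of 6 core and 8 accessory PRC2 subunits 1 and 3 fell. Eed, the subunit that reads the mark the complex makes, went from 5132 and 4569 to 1875 and 2081 (-1.29 ± 0.139, adjusted p 2.5e-06). Epop, an accessory subunit, went from 3008 and 3410 to 887 and 936 (-1.81 ± 0.155, adjusted p 1.92e-07), Jarid2 from 6891 and 7492 to 4076 and 3484 (-0.93 ± 0.171, adjusted p 0.000525), and Mtf2 fell by 0.64. Suz12, the scaffold, at 8622 and 7268 before and 7635 and 5892 after, did not pass the test. Among the loci of the study, Lcor was at 82.2 and 63.0 before and 128.7 and 60.4 after, Lcorl at 499 and 513 before and 718 and 641 after, and Aebp2 at 1452 and 1232 before and 2258 and 2255 after, and none of the 3 was called. Ezh2, the catalytic subunit, was listed at 0 in all 4 libraries and Ezh1, its relative, at 367 and 136 before and 0 and 485 after, so neither could be read from these values. The call of the core subunit Rbbp7 (0.35) was lost without 3 of the 4 libraries, and that of Mtf2 without day 0 replicate 1 or day 4 replicate 2.

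Zfp57, Dnmt3l and Trim28 fell while the de novo enzyme Dnmt3b, described above, rose. Zfp57, which protects imprinted regions, went from 4722 and 5548 to 703 and 892 (-2.69 ± 0.150, adjusted p 2e-09), Dnmt3l, a cofactor without catalytic activity, from 1762 and 1774 to 719 and 661 (-1.35 ± 0.245, adjusted p 0.000468) and Trim28, the corepressor that ZFP57 recruits, from 54485 and 56526 to 37611 and 39907 (-0.52 ± 0.089, adjusted p 0.000281). Dnmt3a rose by 0.69, a call lost without day 0 replicate 1 and with the transcript length trend removed. Among 34 imprinted genes 9 rose and 3 fell. Igf2, the growth factor, went from 20.8 and 33.2 to 291 and 352 (3.41 ± 0.367, adjusted p 2.55e-06), and H19, the noncoding RNA of the same locus, rose by 3.58. Gnas (1.39) and Magel2 (3.39) rose, and Cdkn1c, Phlda2 and Slc38a4 (-0.63) fell, 1 of these without day 0 replicate 1 or without day 4 replicate 2. In the list of 2-cell-like genes, which few stem cells express at a time, Zscan4c was at 23.0 and 34.2 before and 0 in both libraries after, and 3 of 15 members fell, although copies of Zscan4 are nearly identical and reads may be split among them.

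Among metabolic lists those of cholesterol, one-carbon and respiratory chain genes held falls and no rises among their called members. Of 25 cholesterol synthesis genes 13 fell, with a median of -0.65, and 8 fell without day 0 replicate 1. Acat2, at the start of the pathway, went from 4085 and 3888 to 2152 and 2124 (-0.90 ± 0.148, adjusted p 0.000195), Fdft1, squalene synthase, from 3655 and 3121 to 1908 and 1906 (-0.82 ± 0.141, adjusted p 0.000267) and Ebp, a late enzyme, from 826 and 770.3 to 454 and 490 (-0.75 ± 0.140, adjusted p 0.00058). Duplicates lay close together in these genes, and the days did not overlap, which their choice by lowest adjusted p favours. Of the regulators Insig1 (-1.26) fell, while Srebf2 (0.00) did not pass the test. Serine and glycine enzymes fell in 7 of 20 cases, among them Shmt2, the mitochondrial serine hydroxymethyltransferase, from 5718 and 5472 to 1853 and 1825 (-1.60 ± 0.210, adjusted p 2.08e-05), with Tdh counted here as well. In glycolysis Hk2, a hexokinase, went from 12246 and 12117 to 5298 and 4411 (-1.33 ± 0.207, adjusted p 0.000112), while the glucose transporter Slc2a1 (1.07) and Ldhb (1.17) rose. The 21 glycolysis genes had 6 falls, 3 without day 0 replicate 2 or day 4 replicate 2, and 3 rises, 1 without day 0 replicate 1.

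Nuclear genes of the respiratory chain fell in 34 of 74 cases, each by less than 2-fold, with a median of -0.35 over all 74. Ndufv1, of complex I, went from 3862 and 3689 to 2181 and 2210 (-0.78 ± 0.091, adjusted p 5.84e-06) and Uqcrc1, of complex III, from 7203 and 6791 to 4155 and 4415 (-0.71 ± 0.078, adjusted p 3.23e-06). The count was 22 without day 0 replicate 1, 21 without day 0 replicate 2, 18 without day 4 replicate 1 and 35 without day 4 replicate 2. It was 27 with the transcript length trend removed, an alternative chosen after the data were seen, and 9 when only the 4 compared libraries were fitted. At day 4 replicate 2 lay above replicate 1 in 63 of the 74 respiratory genes (85.1%), against 48.2% of all genes. The same held in 71 of 79 ribosomal protein genes (89.9%) and 60 of 61 histone genes (98.4%). Other lists had high shares too, such as STAT3 targets (84.6%), extraembryonic endoderm genes (82.8%) and formative and primed genes (76.5%). Some had low ones, such as 2-cell-like genes (6.67%). A link of these shares to transcript length was not tested. Only 5 of 79 ribosomal protein genes were called, all lower, with a median of -0.11, and the count was 3 without day 0 replicate 1, 1 without day 0 replicate 2 or day 4 replicate 1, and 2 with the length trend removed.

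**Figure D4:**
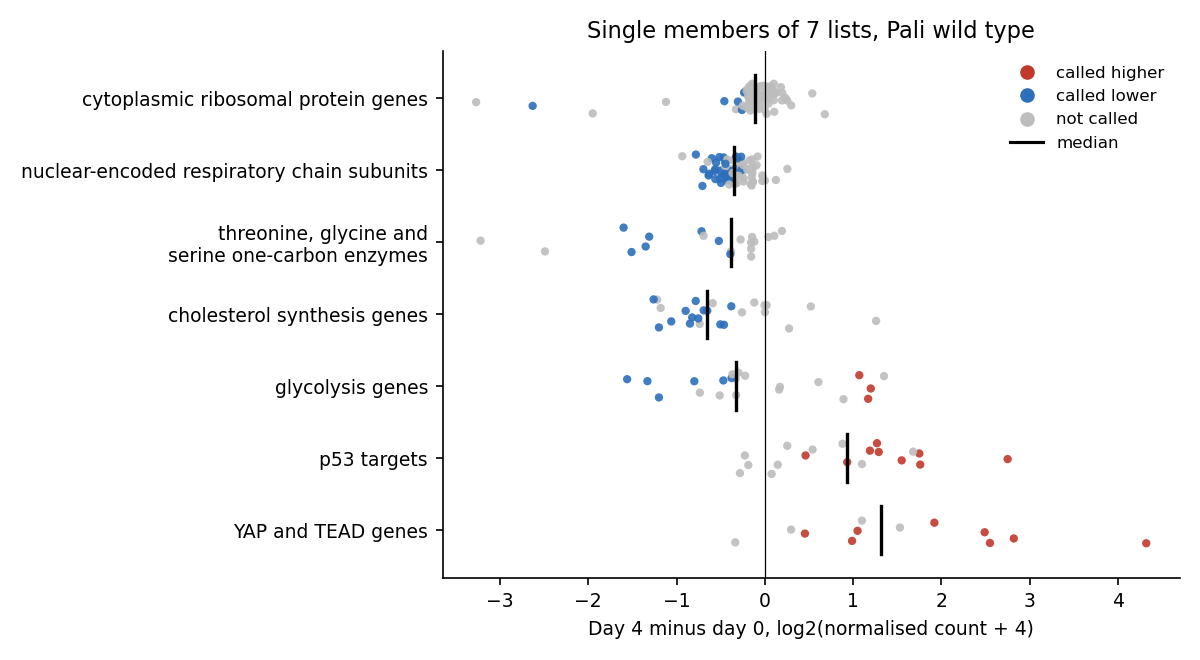
Day 4 minus day 0 difference of log2(normalised count + 4) for each tested member of 7 lists, 1 point per gene, red for called higher, blue for called lower, grey for not called, and a black bar at the list's median. Respiratory genes cluster tightly around -0.35 and ribosomal protein genes around -0.11, while p53 targets and YAP and TEAD genes spread widely to the right, with medians of 0.93 and 1.31.

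The day 4 change of Pali wild type was then set against that of the other lines by testing the difference of the 2 changes. C129 wild type differed in 1413 genes (8.99%), Pali1-/- in 67 (0.426%) and Pali1-/-, Pali2-/- in 75 (0.477%). The 3 tests share the Pali wild type libraries and so are not independent of each other. The C129 count was 705 without C129 day 0 replicate 1, 791 without C129 day 4 replicate 1 and 852 without Pali wild type day 0 replicate 1. That of Pali1-/- was 23 and 35 without its day 4 replicates 1 and 2, and 34 and 32 without those of Pali wild type, and that of the double knockout was 47 without Pali wild type day 4 replicate 1. In C129 the change was more negative than in Pali wild type in 874 of the 1413 genes, in Pali1-/- in 53 of 67 and in the double knockout in 59 of 75. Of 20 naive genes 18 fell in Pali wild type, 17 in C129 and 18 in Pali1-/-. The difference of Klf4 was 0.19 ± 0.503 in C129 and 0.49 ± 0.503 in Pali1-/-, and that of Stat3 -0.20 ± 0.179 and -0.43 ± 0.179, none past the test. Other naive genes did differ: 1 of 20 was called in C129, Klf5 (1.17 ± 0.253, adjusted p 0.00775), and 2 in Pali1-/-, among them Tdh (-1.13 ± 0.214, adjusted p 0.0265). Of the 4296 genes called in Pali wild type, 2213 (51.5%) were called in the same direction in C129, making 48.5% of the C129 calls, and 102 in the opposite direction.

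Among the genes with a smaller change in the other lines were matrix, contractile and keratin genes. Thbs1 rose by 6.81 in Pali wild type, and the change of the other line minus that of Pali wild type was -6.33 in C129 (adjusted p 0.000653), -5.68 in Pali1-/- (adjusted p 0.0116) and -5.66 in the double knockout (adjusted p 0.00747). Trpc1, a cation channel gene listed at 2.15 and, in replicate 2, at 0 at day 0 and at 263 and 204 at day 4, differed in all 3 tests as well, by -5.13, -4.06 and -4.78 in the same order. The differences of Krt8 were -3.67, -3.40 and -3.05 (adjusted p 0.000778, 0.0116 and 0.0164). Tagln differed in C129 (-5.48, adjusted p 0.0015) and the double knockout (-4.68, adjusted p 0.0273) and not in Pali1-/- (-4.01, adjusted p 0.0654), and Cyr61 passed in C129 (-3.90, adjusted p 0.00104), with -2.52 and -2.69 in the knockout lines (adjusted p 0.0818 and 0.0633). At day 0, Thbs1 was at 13.9 to 34.0 in Pali wild type and at 114 to 1574 in the 6 day 0 libraries of the other 3 lines, Krt8 at 113 to 120 against 356 to 1681, Tagln at 26.3 to 26.7 against 65.4 to 1060 and Trpc1 at 0 to 2.15 against 23.7 to 85.3. At day 4 Pali wild type lay above both C129 and Pali1-/-. Thbs1 was at 2782 and 3062 against 187 and 284 in C129 and 692 and 595 in Pali1-/-, Tagln at 2098 and 2804 against 106 and 170 in C129 and 942 and 940.1 in Pali1-/-, and Krt8 at 2541 and 3513 against 802 and 894 in C129 and 1124 and 1066 in Pali1-/-. The double knockout libraries, of uncertain label in replicate 1, overlapped the range of Pali wild type for these 3 genes at day 4, with Thbs1 at 2505 and 3781. Trpc1, at 263 and 204, lay above the other 3 lines, whose 6 libraries held 55.5 to 181.5. In these genes Pali wild type was thus lower at day 0, and higher at day 4 than C129 and Pali1-/-. Thbs1 and Trpc1 were chosen by their differences of change. Tagln and Krt8, like Krt18 and Otx2 below, were named for their rise in Pali wild type. Both choices favour such an order, so it is no separate support. Krt18 at 81.1 to 98.3 against 182 to 1097, Otx2 at 120 to 181 against 413 to 664 and Nes at 280 to 334 against 595 to 1901 had the same order at day 0, which was read off and not tested. Not all genes had it: at day 0 Cyr61, at 125 to 194 against 177 to 1045, Ctgf, Lrp2 and Slc40a1 overlapped the other lines.

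**Figure D5:**
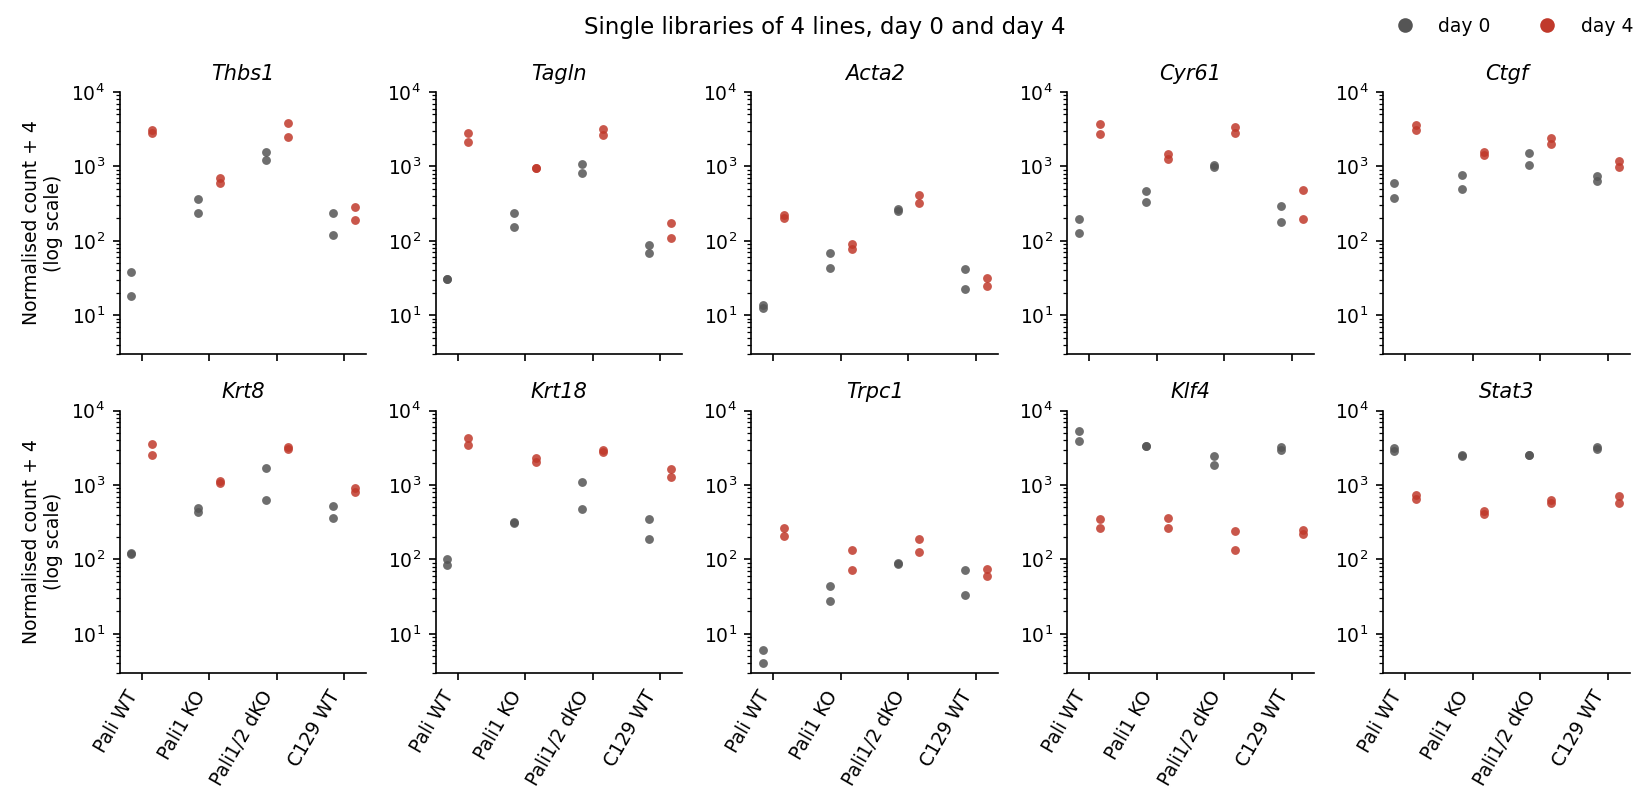
Normalised count plus 4 on a log axis in each day 0 (grey) and day 4 (red) library of 4 lines for 10 genes, 2 points per line and day. Day 0 points of Pali wild type lie below those of the other 3 lines for Thbs1, Tagln, Acta2, Krt8, Krt18 and Trpc1, while Klf4 and Stat3 lie lower at day 4 than at day 0 in all 4 lines.

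For replicate 1 of the double knockout, title and description contradict each other on whether the library is day 0 or day 4, at both times, so results with that line rest partly on libraries of uncertain label. Without the library labelled day 0 replicate 1 the double knockout differed in 46 genes, and without that labelled day 4 replicate 1 in 44. The difference of Thbs1 was then -5.47 (adjusted p 0.0395) and -5.36 (adjusted p 0.0435), and that of Trpc1 -4.79 (adjusted p 0.00362) and -4.50 (adjusted p 0.00375).

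Over all genes the C129 change was more positive than that of Pali wild type in 3.43% and more negative in 5.56%. For p53 targets the C129 change was more negative in 10 of 19 genes with 1 rise and 6 falls of its own. Btg2 was at 894 and 767 at day 0 and at 643 and 902 at day 4 in C129 (difference -2.87, adjusted p 9.79e-05). Of 25 cholesterol genes 9 had a more positive change in C129, of 12 YAP and TEAD genes 4 a more negative one, and of 18 trophoblast-list genes 5 a more negative one. These are counts of called members, and no test of a list was run. The 2-cell-like genes fell in 14 of 15 cases in C129, 9 in Pali1-/- and 11 in the double knockout, and 10 changes in C129 were more negative than in Pali wild type. The starting levels differed. At day 0 the whole list summed to 185 and 99.4 in Pali wild type, while Zscan4c alone was at 14127 and 9862 in C129. Members so low at day 0 could not fall as far, so these differences do not compare the strength of the response. Formative and primed genes rose in 15 of 17 cases in C129, 14 in Pali wild type, and 0 members differed by limma between these 2 lines, with 3 at an unadjusted p under 0.05. In each knockout line 1 member differed, Otx2, by -1.59 in Pali1-/- (adjusted p 0.0493) and -2.25 in the double knockout (adjusted p 0.00461). At an unadjusted p under 0.05 the counts were 2 in Pali1-/- and 9 in the double knockout, where 12 members rose. For Otx2 too the starting levels differed, with 120 to 181 at day 0 in Pali wild type against 413 to 664 in the other 3 lines. At day 4 Otx2 was at 1981 and 2082 in Pali wild type, 2090 and 2208 in Pali1-/- and 1922 and 1630 in the double knockout.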

How the data were processed

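RNA was sequenced from total RNA depleted of ribosomal RNA, in 30 libraries. The deposited table holds normalised counts for all of them, a signal in which each library's gene counts are divided by a scale factor of its own, as the values show: 82.7% to 83.6% of low values in these libraries fell within 0.001 of whole reads. Per the submitters' processing notes the tools were HISAT2 2.0.5, kallisto 0.43.1 and DESeq2, and the build mm10, but which step each served and the annotation are not stated there. Columns named WT were taken as the Pali wild type line.

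Values were taken as log2(value + 4). Genes at 10 or more in at least 2 libraries were fitted in limma 3.58.1 (R 4.3.3) with 15 groups of 2, a mean-variance trend and robust variances, leaving 15 residual degrees of freedom. Groups outside a comparison therefore contribute to its estimate of spread. P-values were adjusted by Benjamini-Hochberg over all 15712 genes and called under 0.05. The difference between lines was tested as the interaction of line and day. On simulated data 59 of 100 genes changed 2-fold and 88 of 100 changed 4-fold were recovered, and 8.7% of calls were false, more than the threshold of 0.05 allows on average. The other genes of the 15712 were left unchanged there, and no gene of low mean was changed. Far more genes, 27.3%, were called in the data, so these rates need not hold for them. Transcript lengths (GENCODE M21, GRCm38) were found for 15560 genes and promoters come from RefSeq. Tables and figures were made with Python 3.11.15, numpy 2.4.6, pandas 2.3.3 and matplotlib 3.10.9.

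Named genes were the 12 largest rises and 12 largest falls among called genes with a higher group mean of at least 100, a lower mean above 0, no overlap and, in the group with the higher mean, duplicates within 4-fold; a fixed panel of 55 genes; up to 3 called members per direction of each list, by adjusted p; and the 4 largest differences in each direction for each other line, under like conditions on means and duplicates. Other list members were named after their values were seen. Members and lists were chosen with earlier results of these data known. Alternatives covered pseudocount, filter, scaling, libraries fitted, pairing, discordant duplicates and, chosen after seeing the data, transcript length.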

Additional observations from a re-analysis of the deposited data

Results flagged for a closer look

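The change from day 0 to day 4 differed from that of Pali wild type, by the test of the difference, in 1413 genes in C129 wild type, 67 in Pali1-/- and 75 in the double knockout. All differences below are the other line's change minus that of Pali wild type, on the log2 scale, and the 3 comparisons share the Pali wild type libraries. Some of the differences below involve 1 library listed at 0, which can be a failed estimate, namely those of Trpc1 in both knockout lines and of Utp4, Plcd3, Med16, Fam196b, Ncapd2, Arrdc2, Hspa4l, Setd1b, Gprc5c, Gbp2 and Slc40a1. Their sizes depend on the added 4 and measure no fold. With 2 libraries a group, no test of single outlying libraries was possible.

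Among called genes that met the conditions on means and duplicates, the 4 most positive differences in C129 were those of Utp4 (7.61), Plcd3 (7.38), Med16 (5.43) and Fam196b (4.46), and the 4 most negative those of Ncapd2 (-9.59), Arrdc2 (-6.70), Thbs1 (-6.33) and Hspa4l (-5.96). The calls of Plcd3 and Thbs1 held under every alternative in which they were tested, those of Ncapd2 and Arrdc2 were lost only when the compared groups were fitted alone, and those of Utp4, Med16, Fam196b and Hspa4l were lost under several.

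In Pali1-/- they were Frem2 (1.75), Qprt (1.56), Fut10 (1.40) and E2f2 (1.38) on the positive side and Setd1b (-6.75), Thbs1 (-5.68), Gprc5c (-4.37) and Trpc1 (-4.06) on the negative side. The call of Setd1b was lost under no alternative, but it rests on Pali1-/- day 4 values of 0.968 and 0, beside 389 and 332 at day 0 and 283 to 359 in Pali wild type at day 4. The calls of Frem2 and Gprc5c were lost under several, and the other 5 only when the compared groups were fitted alone.

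In the double knockout, whose replicate 1 carries conflicting labels, they were Kif15 (2.65), Phyhd1 (2.52), Cpe (2.30) and Sfrp1 (2.10), and Thbs1 (-5.66), Gbp2 (-5.44), Slc40a1 (-4.98) and Trpc1 (-4.78). The calls of Thbs1 and Trpc1 were lost under no alternative in which they were tested, and those of Cpe and Sfrp1 only when the compared groups were fitted alone. That of Gbp2 was lost with the compared groups alone and without double knockout day 4 replicate 1, a library of uncertain label, and those of Kif15, Phyhd1 and Slc40a1 under several alternatives.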

How the results depend on the processing

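The 4296 calls of Pali wild type ranged from 3862 to 4383 over the other pseudocounts, filters, scalings, the fit with a replicate block (4383), removal of discordant duplicates and removal of the length trend (4201, chosen after the data were seen), and from 2947 to 3419 with 1 library left out. Fitting the compared groups alone, with fewer residual degrees of freedom, gave 1449 calls here, and 260 of 1413 for C129, 10 of 67 for Pali1-/- and 26 of 75 for the double knockout. With the replicate block 105 genes differed in Pali1-/-. Same-numbered libraries did not deviate together (correlations of -0.022 to 0.0539 in the 4 lines), so the numbers are names only. With 1 library left out the differences ranged from 705 (without C129 day 0 replicate 1) to 1258 genes for C129, from 23 (without Pali1-/- day 4 replicate 1) to 74 for Pali1-/- and from 44 (without double knockout day 4 replicate 1) to 98 for the double knockout. Of 208 named genes called in Pali wild type, 171 to 173 were called again without 1 library, 131 with the compared groups alone and 200 with the length trend removed. No direction reversed in any result and alternative run. Depth was known only as estimated reads, so no counting error was attached to single values.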

Other observations

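Chromosome X had 580 tested genes, of which 19.7% rose and 11% fell from day 0 to day 4 in Pali wild type, beside 14.5% and 12.8% on the autosomes. Single autosomes ranged from 11.8% to 17.8% higher and from 9.29% to 15.1% lower, so the share of rises on chromosome X lay above that of each autosome. Of 855 long noncoding RNA genes 106 (12.4%) rose and 59 (6.9%) fell, with a median of 0.27. Both shares lay below those of protein-coding genes, 14.9% and 13.1%. These shares are descriptions, with no test.

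At day 8, for which no test was made here, several genes that rose by day 4 stood lower again. Thbs1 was at 1567 and 1586, Krt8 at 1354 and 2464, Cyr61 at 824 and 1181, Tagln at 505 and 771, and Lrp2 at 7807 and 14113, each below both of its day 4 values. Igf2, at 1883 and 3069, and Acta2, at 515 and 544, were instead higher at day 8 than at day 4.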
